A study of Mus musculus with 220 samples.

Results

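The Cyp4 genes encode cytochrome P450 enzymes that oxidise the last carbon of fatty acids and of signalling lipids made from them. The 7 genes chosen were Cyp4a10, Cyp4a12a, Cyp4a14, Cyp4f13, Cyp4f14, Cyp4f15 and Cyp4v3, taken by name with every probe set the array annotation gave them. Of these, 6 genes had 7 probe sets, of 17097 genes and 45037 probe sets in the whole table. No probe set carried the name Cyp4a14, which was not analysed here. Cyp4a10 and Cyp4a12a lie on chromosome 4, the Cyp4f genes on chromosome 17 and Cyp4v3 on chromosome 8.

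Expression was measured in livers of 220 female Ath-HMDP mice at 24 weeks of age, after 8 weeks of chow and 16 weeks of Western diet. Every mouse had a C57BL/6J father carrying human APOE-Leiden and CETP, so all groups shared both transgenes and 1 C57BL/6J copy of each autosome, and a maternal allele was read in a single copy. The mothers came from the recombinant inbred panels BXD (83 mice of 34 strains), AXB/BXA (47 of 21), CXB (17 of 8) and BXH (8 of 4) and from classical inbred strains (65 of 29). Strains of a recombinant inbred panel are mosaics of C57BL/6J with DBA/2J (BXD), A/J (AXB/BXA), BALB/cJ (CXB) or C3H/HeJ (BXH).

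Omega-hydroxylation by Cyp4 enzymes opens a route by which a fatty acid becomes a dicarboxylic acid, which is then shortened in peroxisomes. In mouse liver the Cyp4a genes are classical targets of the fatty acid receptor PPARa, and Cyp4a12a is known as a male-predominant hydroxylase of arachidonic acid in mouse liver and kidney. Cyp4f enzymes hydroxylate leukotrienes and other eicosanoids, Cyp4f14 being a leukotriene hydroxylase of mouse liver. Cyp4v3 is the mouse counterpart of human CYP4V2, a fatty acid hydroxylase whose mutation causes a crystalline retinal dystrophy in people.

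The promoters of the 3 Cyp4f genes are shown because these genes varied together across strains. Each run covers 125 bases before to 25 bases after the annotated start, in the direction of the gene, from RefSeq on GRCm38.p6. The promoter set held 4 entries for Cyp4f14, of which the most upstream start was taken, and 1 each for Cyp4f13 and Cyp4f15. The windows were chr17:32947337-32947486 on the minus strand for Cyp4f13, chr17:32917332-32917481 on the minus strand for Cyp4f14 and chr17:32685534-32685683 on the plus strand for Cyp4f15. Capitals mark GGATTGG, a run of 7 letters found in all 3 windows. No longer run was shared in the direction of the genes, and TTGGCTG, also of 7 letters, was shared too. GGATTGG was picked from these windows, so its presence in all 3 is no test of enrichment.
Cyp4f13: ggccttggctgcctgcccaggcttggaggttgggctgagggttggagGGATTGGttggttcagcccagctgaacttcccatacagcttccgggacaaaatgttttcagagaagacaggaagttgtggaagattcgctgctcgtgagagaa
Cyp4f14: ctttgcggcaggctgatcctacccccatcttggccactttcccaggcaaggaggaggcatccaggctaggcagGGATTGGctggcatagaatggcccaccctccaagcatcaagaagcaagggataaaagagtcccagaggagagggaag
Cyp4f15: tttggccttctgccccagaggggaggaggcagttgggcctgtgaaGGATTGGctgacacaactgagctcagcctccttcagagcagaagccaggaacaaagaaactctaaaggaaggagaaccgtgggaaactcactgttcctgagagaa
The capitals began 78 bases before the start of Cyp4f13, 52 before that of Cyp4f14 and 80 before that of Cyp4f15. They include an inverted CCAAT box. On either strand GGATTGG was present in 2.87% of 32851 promoter windows of the same length, and CCAAT in 24.1%. The window of Cyp4v3 held neither. Among other Cyp4f genes, the letters were also found for Cyp4f18 and not for Cyp4f16, Cyp4f37, Cyp4f39 or Cyp4f40. The DR1 element is AGGTCA repeated after 1 free base, the textbook site of PPARa with its partner RXR. It was in none of the 4 member windows searched and in 0.0274% of all windows. Its single element AGGTCA was also in none of the 4 and in 8.37% of all. The promoter set had no entry for Cyp4a10, Cyp4a12a or Cyp4a14, so no Cyp4a window of the members was searched.

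Array medians ran from 3.426 to 3.565 on the log2 scale, and 9, 51, 35 and 1 strains had 1, 2, 3 and 4 mice. All 7 hepatocyte markers were measured, and their mean log2 level per strain was 12.57 to 12.94. No Y-linked probe set exceeded 3.34 in any mouse, but replicate 2 of BXD50/RwwJ read 3.39, 3.73 and 5.58 on the 3 Xist probe sets, where the next lowest mice read 9.79, 8.18 and 11.16. This mouse stood apart from the others in Xist but not in the Y-linked probe sets, and the BXD50/RwwJ values are therefore given with and without it. Its Cyp4a12a level was 2.80.

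The first question was how strongly each Cyp4 gene was expressed and how far it varied with the maternal strain. Cyp4a10 averaged 11.63 over all mice (10.49 to 12.37), and the brighter probe set of Cyp4v3 averaged 11.21. Cyp4f15 averaged 9.23 (8.15 to 10.26), Cyp4f14 9.17 (7.78 to 10.43) and Cyp4f13 6.43 (5.61 to 7.36). Cyp4a12a differed from these, with a mean of 4.44 and a median of 3.83 but single mice from 2.49 to 9.80. All 7 probe sets lay above the median probe set mean of 3.46, although levels of different probe sets cannot be ranked against each other.

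Strain means of Cyp4a12a spanned 7.08 log2 units, between KK/HlJ at 9.65 and BXD34/TyJ at 2.57. The low end lay below the median probe set mean of 3.46 and in the range of the Y-linked probe sets, at background in these females, so no fold is given for it. The span was 4.41-fold for Cyp4f14, 3.47-fold for Cyp4f15, 3.3-fold for Cyp4a10 and 2.88-fold for Cyp4f13. Cyp4v3 had the narrowest span, 1.81-fold and 1.39-fold on its 2 probe sets. Some of these ends were single mice, which were assumed to vary like mice of other strains, namely BXD34/TyJ for Cyp4a12a, CXB11/HiAJ for Cyp4a10, AXB5/PgnJ for Cyp4f13 and Cyp4f15, and PL/J for Cyp4f14.

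**Figure D1:**
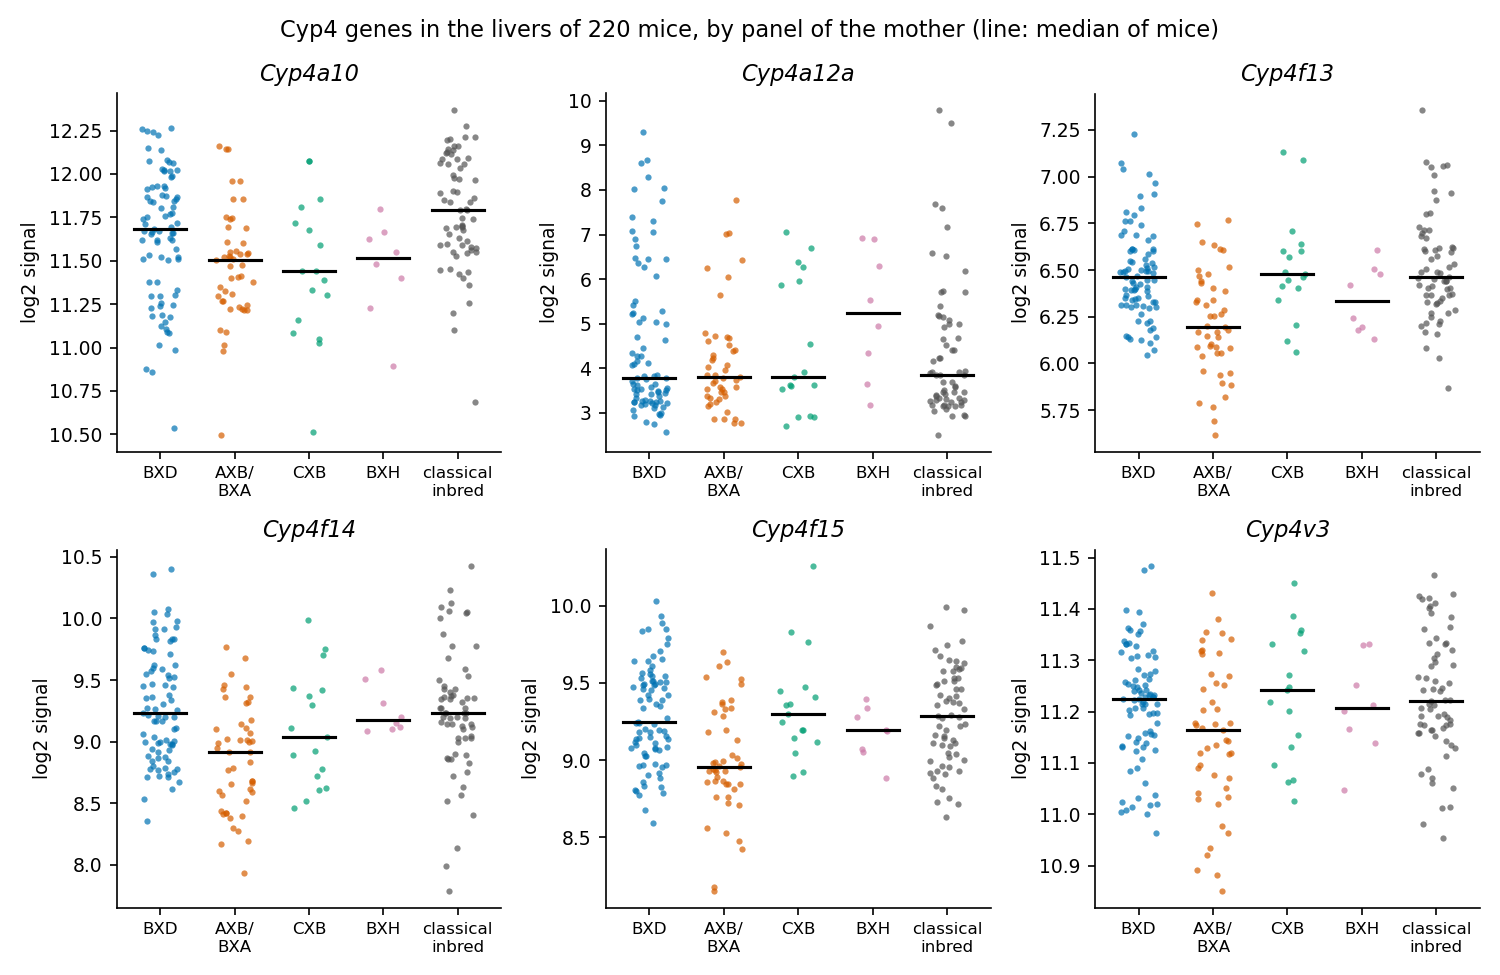
Levels of the 6 Cyp4 genes in single mice (vertical axis, log2 RMA signal, the brighter probe set for Cyp4v3) by panel of the maternal strain (horizontal axis), with 1 point per mouse and a line at the median of the mice. Cyp4a12a has a median of 3.83 over all mice and a tail up to 9.80, and the AXB/BXA mice sit low for the 3 Cyp4f genes.

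Maternal strain was associated with the level of all 7 probe sets by limma's moderated F-test over 211 mice of 87 strains, against 47.9% of all probe sets. The adjusted p was 2.42e-21 for Cyp4f15, 1.95e-21 for Cyp4a12a, 6.46e-15 for Cyp4a10, 2.57e-14 for Cyp4f13 and 1.76e-13 for Cyp4f14. Cyp4v3 had 2.04e-06 and 1.47e-06. The share of variance lying between strains was 0.710 ± 0.048 (SE, n = 87 strains) for Cyp4f15 and 0.704 ± 0.049 for Cyp4a12a, which placed them at percentiles 98.3 and 98.1 of all probe sets. It was 0.605 ± 0.060 for Cyp4a10, 0.598 ± 0.061 for Cyp4f13 and 0.574 ± 0.063 for Cyp4f14. Both Cyp4v3 probe sets were lower, at 0.391 ± 0.078 and 0.428 ± 0.075. The median over the 6 genes was 0.602, against 0.148 for all probe sets and 0.370 for those above the median signal. With the first principal component of all probe sets as a covariate the median was 0.403. Whatever litter, cage or day the mice of a strain shared is part of these shares and cannot be told apart from the strain.

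Cyp4a12a was low in most mice and high in a minority of strains. Of 220 mice, 60 read above 5 and 40 above 6, and 42 of 96 strain means lay between 3 and 4. Both KK/HlJ mice were high, at 9.80 and 9.50, followed by BXD36/TyJ at 9.30, 8.60 and 8.05 and BXD32/TyJ at 8.66, 8.02 and 7.06. At the other end BXD38/TyJ read 2.92 and 2.74, and the single mice of BXA1/PgnJ and BXD34/TyJ read 2.77 and 2.57. No mouse of the 3 high strains overlapped with any mouse of the 3 low ones. Here and for each gene below, the highest and lowest strains were picked by their means, so their separation is no test of a difference. C57BL/6J, the paternal strain, was at the low level, with 3.14 and 3.17.

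Against the mean of the other strains, Cyp4a12a was higher in 14 of 96 strains (14.6%) and lower in 0 (limma, p adjusted over all probe sets and strains), where 1.81% and 1.67% of all such comparisons were higher and lower. At an unadjusted p below 0.05, 18 strains were higher and 17 lower. Low Cyp4a12a values lay at background, which limits how far below the others a strain can read. KK/HlJ exceeded the others by 5.33 ± 0.585 (SE; 9.65 against 4.32, adjusted p = 4.76e-12). BXD36/TyJ exceeded them by 4.32 ± 0.479 (adjusted p = 7.77e-12) and BXD32/TyJ by 3.57 ± 0.479 (adjusted p = 1.49e-08). The remaining 11 were AXB8/PgnJ (mean 7.02), BXD18/TyJ (6.91), NON/ShiLtJ (6.89), BXD24/TyJ-Cep290<rd16>/J (6.75), BXD6/TyJ (6.71), BXH6/TyJ (6.60), CBA/J (6.43), BXD69/RwwJ and 129X1/SvJ (both 6.29), AXB15/PgnJ (6.24) and CXB8/HiAJ (6.17). They came from all 5 panels, 6 of the 14 being BXD strains and 4 classical inbred strains. Only KK/HlJ, BXD36/TyJ, BXD32/TyJ and BXD18/TyJ were called in every run that left out replicate 1, 2 or 3 of each strain, a strain with 1 mouse being absent from the first such run.

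**Figure D2:**
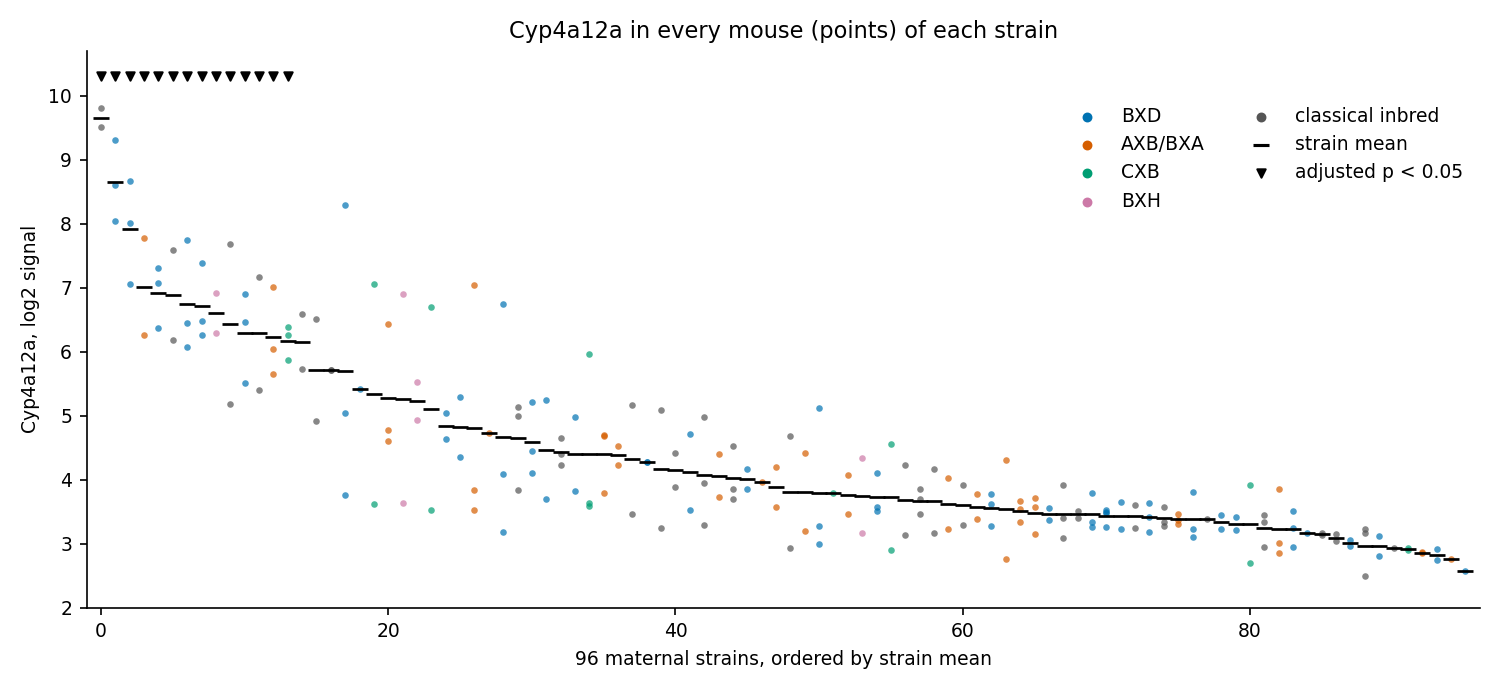
Cyp4a12a in every mouse (log2 RMA signal), with strains ordered by their mean, 1 point per mouse, panels marked by colour, a dash at the strain mean and a triangle over each of the 14 strains called higher. KK/HlJ stands highest with mice at 9.80 and 9.50, and several strains lower down have mice spread over more than 3 log2 units.

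Mice of the same strain could differ widely in Cyp4a12a. The within-strain SD was 0.84, and the widest strain was BXD21/TyJ, with mice at 3.76, 5.04 and 8.29. BXD55/RwwJ read 3.19, 4.08 and 6.75, and AXB6/PgnJ read 3.53, 3.84 and 7.04. In the order of strain means, 2 of 95 gaps between neighbours exceeded the within-strain SD, the larger being 1.00 between KK/HlJ and BXD36/TyJ. With so many means in order most gaps are small, and the SD is that of single mice. Here and for the genes below, such counts do not test whether strains differ.

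Cyp4a10, a PPARa target, was abundant everywhere and varied less. BXD5/TyJ was highest, with mice at 12.25, 12.24 and 12.23, followed by NOD/ShiLtJ at 12.28 and 12.12 and BXD50/RwwJ at 12.26 and 12.07. The lowest were AXB19/PgnJ at 11.22 and 10.49, BXD69/RwwJ at 11.01, 10.86 and 10.54, and the single CXB11/HiAJ mouse at 10.51. All mice of the highest 3 strains were above all mice of the lowest 3. Cyp4a10 was called higher in 8 strains (8.33%) and lower in 6 (6.25%), where 1.81% and 1.67% of all such comparisons were. BXD5/TyJ exceeded the other strains by 0.63 ± 0.132 (SE, adjusted p = 7.05e-04), and BXD69/RwwJ lay below them by -0.82 ± 0.132 (adjusted p = 3.83e-06) and CXB11/HiAJ by -1.11 ± 0.228 (adjusted p = 5.06e-04). The BXD5/TyJ and BXD69/RwwJ calls held in every run that left replicates out, and the single CXB11/HiAJ mouse could not be put to that check. KK/HlJ and BXD69/RwwJ, which were among the strains with high Cyp4a12a, were low in Cyp4a10, with means of 10.94 (adjusted p = 0.00407) and 10.80. One of 95 neighbour gaps, 0.29 between BXD69/RwwJ and CXB11/HiAJ, exceeded the within-strain SD of 0.23.

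Cyp4f15 had the most strain calls of the family, 15 higher (15.6%) and 10 lower (10.4%), against 1.81% and 1.67% of all such comparisons. BXD50/RwwJ read 10.03 and 9.85, NOD/ShiLtJ 9.99 and 9.74, and CXB13/HiAJ 9.83 and 9.77. The single mice of BXD34/TyJ, BXA25/PgnJ and AXB5/PgnJ were lowest, at 8.59, 8.17 and 8.15. No mouse of the high strains came near the low ones, the groups being more than 1 log2 unit apart. AXB5/PgnJ lay -1.07 ± 0.179 below the others (SE, adjusted p = 8.23e-06), and BXA25/PgnJ -1.05 (adjusted p = 1.49e-05). Among strains with 3 mice, BXD1/TyJ was 0.58 higher (adjusted p = 4.54e-05) and AXB6/PgnJ -0.57 lower (adjusted p = 5.46e-05). Among strains with 2 or more mice, the calls of BXD1/TyJ, AXB15/PgnJ, AXB6/PgnJ and BXA14/PgnJ held in every run that left out replicates, a check that the single mice of AXB5/PgnJ and BXA25/PgnJ could not be put to. The gap of 0.42 between BXD34/TyJ and BXA25/PgnJ was the only one of 95 above the within-strain SD of 0.18.

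Cyp4f14, the leukotriene hydroxylase, was highest in SWR/J (10.43 and 10.12), BXD50/RwwJ (10.36 and 9.86) and BXD55/RwwJ (10.40, 10.08 and 9.74). It was lowest in AXB15/PgnJ (8.42, 8.39 and 8.19), in A/J, whose mice spread over 9.23, 7.99 and 7.78, and in the single PL/J mouse (8.13). The highest A/J mouse stayed below every mouse of the 3 high strains. Cyp4f14 was called higher in 6 strains (6.25%) and lower in 7 (7.29%), where 1.81% and 1.67% of all such comparisons were. SWR/J exceeded the others by 1.12 ± 0.225 (SE, adjusted p = 3.32e-04) and BXD55/RwwJ by 0.92 ± 0.184 (adjusted p = 3.39e-04), and A/J lay -0.84 below them (adjusted p = 0.00144). Only the BXD55/RwwJ call held in every run that left replicates out, and no neighbour gap exceeded the within-strain SD of 0.32.

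Cyp4f13 was highest in I/LnJ (7.36 and 6.92), SWR/J (7.06 and 6.91) and BXD55/RwwJ (7.23, 7.04 and 6.60). BXA2/PgnJ (6.11 and 5.69) and the single mice of BXA25/PgnJ (5.82) and AXB5/PgnJ (5.61) were lowest, without overlap with the high strains. It was called higher in 10 strains (10.4%) and lower in 9 (9.38%), where 1.81% and 1.67% of all such comparisons were. I/LnJ exceeded the others by 0.72 ± 0.127 (SE, adjusted p = 3.06e-05), and AXB5/PgnJ lay below them by -0.82 ± 0.179 (adjusted p = 0.00130). No Cyp4f13 call of a strain with 2 or more mice held in every run that left replicates out, and the single AXB5/PgnJ mouse could not be put to that check. Of the 9 strains with lower Cyp4f13, 8 belonged to AXB/BXA and the other was A/J, their progenitor.

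Cyp4v3 varied least. On its brighter probe set, which may bind related transcripts, SM/J (11.47 and 11.39), C58/J (11.42 and 11.41) and 129X1/SvJ (11.43 and 11.38) were highest, and AXB5/PgnJ (10.96), BXA2/PgnJ (11.03 and 10.88) and AXB15/PgnJ (11.08, 10.93 and 10.85) lowest. The high and low strains did not overlap, although less than 1 log2 unit separated them. This probe set was called higher in 1 strain (1.04%) and lower in 4 (4.17%). The other was called higher in 2 and lower in 2 (2.08% each). Of all such comparisons 1.81% were higher and 1.67% lower, so the Cyp4v3 shares were near these, apart from the 4.17% lower. SM/J was 0.23 higher (adjusted p = 0.0395) and AXB15/PgnJ -0.25 lower (adjusted p = 0.00159). All 4 strains with low Cyp4v3, AXB6/PgnJ, BXA14/PgnJ, BXA2/PgnJ and AXB15/PgnJ, were AXB/BXA strains. No Cyp4v3 call held in every run that left replicates out.

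Several strains were called for more than 1 Cyp4 gene. In all, 55 strains were called for at least 1 gene, where 1.81% of all comparisons of a strain and probe set were higher and 1.67% lower. How many strains are called for other sets of genes was not counted. NOD/ShiLtJ, BXD50/RwwJ and BXD55/RwwJ were higher in Cyp4a10, Cyp4f13, Cyp4f14 and Cyp4f15, and BUB/BnJ in Cyp4a10, Cyp4f13 and Cyp4f15. AXB15/PgnJ and BXA14/PgnJ were lower in Cyp4f13, Cyp4f14, Cyp4f15 and Cyp4v3, A/J in the 3 Cyp4f genes and BXA2/PgnJ in Cyp4f13, Cyp4f14 and Cyp4v3. Opposite calls were found in 3 strains, AXB15/PgnJ, BXD69/RwwJ and KK/HlJ, each higher in Cyp4a12a and lower in others.

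Without the mouse with low Xist, 1 BXD50/RwwJ mouse was left and 3 of its 4 calls were lost. With both mice BXD50/RwwJ exceeded the other strains by 0.56 in Cyp4a10 (adjusted p = 0.0270), 0.50 in Cyp4f13 (0.00798), 0.96 in Cyp4f14 (0.00345) and 0.74 in Cyp4f15 (1.64e-05). Without that mouse the differences were 0.66 for Cyp4a10 (adjusted p = 0.0976), 0.41 for Cyp4f13 (0.245) and 0.71 for Cyp4f14 (0.264). Cyp4f15 stayed called, at 0.65 (adjusted p = 0.0203).

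Over all probe sets of the family, 94 strain calls were made. Leaving out replicate 1, 2 or 3 of each strain gave 41, 33 and 66 calls, fewer mice being left in each strain.

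The next question was whether the progenitors of the recombinant inbred panels differed from C57BL/6J, each of these comparisons sharing the same 2 C57BL/6J mice. A/J had the most Cyp4 calls, with 4 probe sets lower and 0 higher by limma (5 and 0 at an unadjusted p below 0.05), where 3.52% of all probe sets were lower and 4.11% higher. Cyp4f14 read 9.23, 7.99 and 7.78 in A/J mice, against 10.01 and 9.43 in C57BL/6J mice, without overlap (difference -1.38 ± 0.289, SE, adjusted p = 3.47e-04). Cyp4f15 read 8.93, 8.71 and 8.63 in A/J, against 9.87 and 9.39 in C57BL/6J (-0.87 ± 0.163, adjusted p = 5.70e-05). Cyp4f13 read 6.21, 6.03 and 5.87 in A/J, against 6.87 and 6.68 in C57BL/6J (-0.74 ± 0.163, adjusted p = 7.91e-04). All A/J mice were below both C57BL/6J mice for Cyp4f15 and Cyp4f13. The brighter Cyp4v3 probe set averaged 11.09 ± 0.076 (SD, n = 3) in A/J and 11.36 ± 0.095 (SD, n = 2) in C57BL/6J (adjusted p = 0.0397, a call that held in 1 of 5 runs without a mouse), and its other probe set differed by -0.43 (adjusted p = 0.0692). Cyp4a10 differed by -0.34 (adjusted p = 0.401) and Cyp4a12a by 0.31 (adjusted p = 0.897).

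C3H/HeJ had 1 probe set higher (3.5% of all) and 1 lower (2.36% of all). Cyp4a12a was 5.72 and 5.71 in C3H/HeJ, against 3.14 and 3.17 in C57BL/6J, a difference of 2.56 ± 0.823 (SE, adjusted p = 0.0428). The C3H/HeJ mice had a mean Cyp4f15 level of 8.74 ± 0.019 (SD, n = 2), against 9.63 ± 0.343 (SD, n = 2) for C57BL/6J (-0.89 ± 0.179 SE, adjusted p = 2.91e-04). BALB/cJ was lower in Cyp4f15 alone (9.01 ± 0.099, SD, n = 3, against 9.63 ± 0.343, n = 2, in C57BL/6J, adjusted p = 0.00697), where 3.01% of all probe sets were lower and 3.93% higher. Its Cyp4f13 difference was -0.47 (adjusted p = 0.0576). DBA/2J had no Cyp4 call by limma (1 lower at an unadjusted p below 0.05), with 0.842% of all probe sets higher and 1.02% lower, and its widest differences were 0.92 in Cyp4a12a (adjusted p = 0.751) and -0.89 in Cyp4f14 (adjusted p = 0.0954).

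These calls rested on C57BL/6J replicate 1. Without this mouse, which leaves 1 C57BL/6J mouse assumed to vary like the other strains, 0 of the 7 calls passed and all kept their direction, with differences in A/J of -1.10 for Cyp4f14 (adjusted p = 0.0998), -0.65 for Cyp4f13 (0.0819) and -0.63 for Cyp4f15 (0.0886). Cyp4f15 then differed by -0.65 in C3H/HeJ (adjusted p = 0.127) and by -0.38 in BALB/cJ (0.483), and Cyp4a12a by 2.55 in C3H/HeJ (0.255). The Cyp4a12a call in C3H/HeJ was lost whichever of the 4 mice was left out (adjusted p = 0.130 to 0.255).

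**Figure D3:**
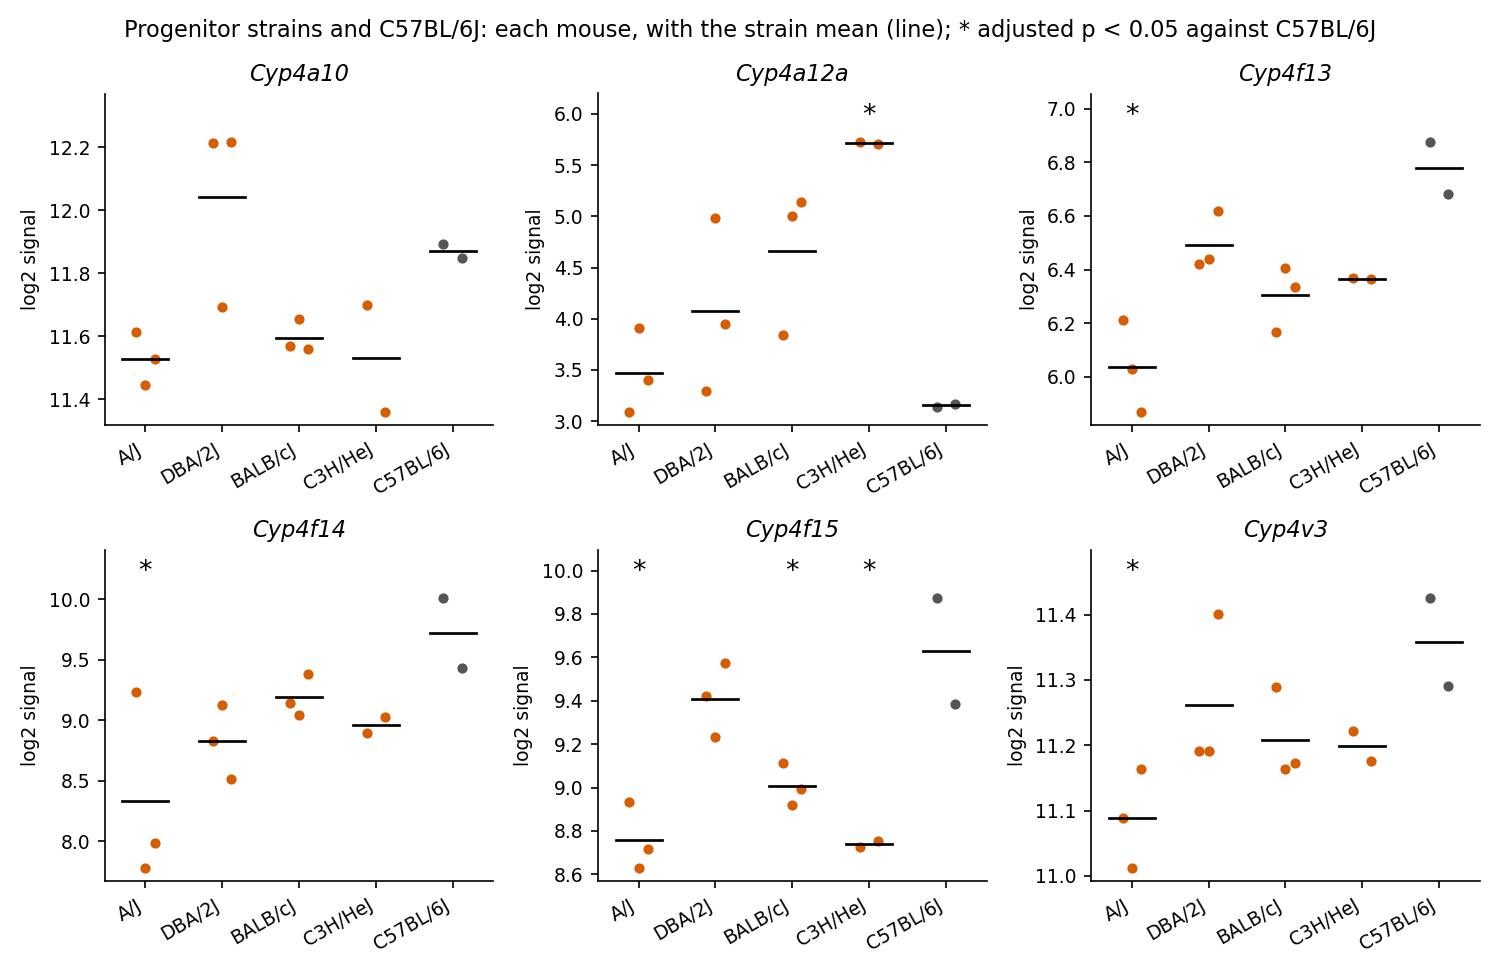
Levels of the 6 Cyp4 genes, the brighter probe set standing for Cyp4v3, in single mice of A/J, DBA/2J, BALB/cJ, C3H/HeJ and C57BL/6J (log2 RMA signal), with lines at the strain means and asterisks over the progenitors called against C57BL/6J. The A/J mice lie below both C57BL/6J mice for Cyp4f13, Cyp4f14 and Cyp4f15, and both C3H/HeJ mice lie above them for Cyp4a12a.

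Markers of other liver cells moved with some of these contrasts. The mean log2 level of the 6 cholangiocyte markers measured, of 8 listed, was 5.19 to 5.64 in A/J mice, 6.15 to 6.40 in BALB/cJ and 6.68 to 6.76 in C3H/HeJ, against 4.99 to 5.20 in C57BL/6J. Of these 6 markers 0 were called higher in A/J, 1 in BALB/cJ and 4 in C3H/HeJ. Of 8 endothelial markers, 7 were lower in BALB/cJ (median difference -0.99), 3 in A/J (-0.56), 2 in C3H/HeJ (-0.72) and 1 in DBA/2J (-0.12). Of 17091 genes outside the family, 1011 were higher and 785 lower in A/J, and 944 and 717 in BALB/cJ. In C3H/HeJ 919 were higher and 538 lower, and in DBA/2J 191 and 168. Of 10 Kupffer cell and macrophage markers, 3 were higher in A/J and 1 was lower in C3H/HeJ. Stellate markers were called in both directions, with at most 1 of 9 each way in any progenitor. The hepatocyte markers averaged 12.47 to 12.67 in A/J mice, against 12.76 to 12.81 in C57BL/6J mice. The first principal component of all probe sets averaged 1.03 SD units in C57BL/6J, 0.77 in DBA/2J, -0.86 in A/J, -0.99 in BALB/cJ and -1.18 in C3H/HeJ. The part of these markers and of the component in the Cyp4 differences was not tested. In whole liver, fewer hepatocytes and less RNA per hepatocyte cannot be told apart.

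Recombinant inbred strains were then set beside their progenitors. For Cyp4f14, all 21 AXB/BXA strain means lay between those of A/J and C57BL/6J, and for Cyp4f13 and Cyp4f15 17 and 16 of 21 did. Cyp4f14 in BXD lay between DBA/2J and C57BL/6J in 29 of 34 strains. Counted from the highest mean, A/J ranked 95, 92 and 90 of 96 strains in Cyp4f14, Cyp4f13 and Cyp4f15. C57BL/6J was at 9.72 in Cyp4f14, where strain means ran from 8.13 to 10.28. How many strains of other ancestry lie in these wide intervals was not counted, so the counts are no test of inheritance. For Cyp4a12a the progenitors of AXB/BXA were closer together, at 3.47 in A/J and 3.16 in C57BL/6J, than the within-strain SD of 0.84, so counts of strains between them are not given. By more than 2 within-strain SDs, 3 of 21 AXB/BXA and 6 of 34 BXD strains lay above both progenitors in Cyp4a12a. A strain that far below both would lie under the lowest mouse of the series, at 2.49, so no count below is given. In BXD, 9 of 34 strains lay below both progenitors in Cyp4a10 and 10 in Cyp4f15 by that margin, and 0 above, where DBA/2J and C57BL/6J were at 12.04 and 11.87 in Cyp4a10 and at 9.41 and 9.63 in Cyp4f15.

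Strains within a panel differed too. Of the 7 probe sets, all 7 were called in AXB/BXA (21.7% of all probe sets), all 7 among classical inbred strains (35.4%) and 5 in BXD (32.5%), where Cyp4v3 missed the threshold (adjusted p = 0.101 and 0.146). In BXD the adjusted p was 3.20e-12 for Cyp4a12a, 8.50e-10 for Cyp4f15, 7.71e-07 for Cyp4a10, 5.63e-06 for Cyp4f14 and 5.96e-06 for Cyp4f13. In AXB/BXA Cyp4f15 had 4.87e-06 and Cyp4a12a 2.91e-04. None was called by limma in CXB or BXH, where 1.71% and 1.15% of all probe sets were, although 2 and 4 had an unadjusted p below 0.05, and the lowest adjusted p in CXB was 0.0687 for Cyp4f14. With replicate 1 or replicate 2 of each strain left out, 2 probe sets were called in AXB/BXA and 3 among classical inbred strains, and 5 in BXD. Without replicate 2, Cyp4a12a was called in CXB (adjusted p = 0.00373).

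Of the 7 Cyp4 probe sets, 4 were lower in AXB/BXA strains as a panel than in classical inbred strains and 0 higher. All AXB/BXA strains share A/J and C57BL/6J ancestry, and the SE and adjusted p given here do not allow for that. Strain means of Cyp4f13 averaged 6.20 in AXB/BXA and 6.53 in classical inbred strains (-0.33 ± 0.067, SE, n = 21 and 29 strains, adjusted p = 0.00135). Cyp4f14 averaged 8.87 in AXB/BXA, against 9.23 in classical inbred strains (-0.36 ± 0.113, adjusted p = 0.0444). Cyp4f15 averaged 8.97 in AXB/BXA, against 9.28 (-0.31 ± 0.091, adjusted p = 0.0313), and Cyp4a10 11.48 in AXB/BXA, against 11.79 (-0.31 ± 0.088, adjusted p = 0.0249) in classical inbred strains. Of all probe sets, 2.49% were lower and 2.16% higher. Cyp4v3 differed by -0.16 and -0.07 (adjusted p = 0.0525 and 0.142) and Cyp4a12a by -0.29 (adjusted p = 0.743). With strains of 1 mouse left out, Cyp4a10 (-0.30, adjusted p = 0.0502) and Cyp4f15 (-0.23, adjusted p = 0.120) lost their calls. The cholangiocyte markers averaged 5.83 in AXB/BXA (4.09 to 7.31 over strains) and 5.26 in classical inbred strains (4.18 to 6.72). The first principal component averaged -0.55 SD units in AXB/BXA and 0.16 in classical inbred strains. The part of the markers and of the component was not tested. No Cyp4 probe set was called by limma in BXD, CXB or BXH against classical inbred strains (1 lower in each at an unadjusted p below 0.05), where 0.473%, 0.0799% and 0.00444% of all probe sets were higher in these panels and 0.533%, 0.0933% and 0% lower.

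Among the other Cyp4 genes, 6 of 13 listed were measured and 4 were called in the F-test, where 10107 of 17091 genes were. Cyp4f18 was 0.81 higher in AXB/BXA than in classical inbred strains (adjusted p = 3.56e-05), opposite to Cyp4f13, Cyp4f14 and Cyp4f15 in the same comparison. Cyp4b1, which acts on short fatty acids and foreign compounds, was -1.04 lower in BALB/cJ (adjusted p = 0.00211) and -1.03 lower in C3H/HeJ (adjusted p = 0.00743) than in C57BL/6J.

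The Cyp4f genes on chromosome 17 varied together across the 96 strains. Over the 15 pairs of members, 11 had a permutation p below 0.05 after adjustment over the pairs (100000 permutations, 2-sided, where 1e-05 is the smallest p they can give and 1.67e-05 that value adjusted). The permutations treat the strains as exchangeable, although strains of a panel are related. Cyp4f13 and Cyp4f15 had the closest relation, with Pearson r = 0.82 (p = 1e-05, adjusted 1.67e-05) and Spearman rho = 0.81 (p = 1e-05, adjusted 1.88e-05), and r = 0.85 without AXB5/PgnJ and I/LnJ, the 2 strains farthest from the median. It was also found within BXD (r = 0.86), AXB/BXA (0.86), CXB (0.96, exact permutation over 8 strains) and classical inbred strains (0.62), and BXH held too few strains. Cyp4f14 was less closely related, with r = 0.57 to Cyp4f13 and 0.55 to Cyp4f15, both at the smallest p. Deviations of mice from their strain mean also correlated, with r = 0.54 for Cyp4f13 with Cyp4f15 and 0.52 for Cyp4f13 with Cyp4f14 over 211 mice, given here as a description.

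Genes on other chromosomes joined this pattern. Cyp4f15 correlated with Cyp4v3 at r = 0.63 and with Cyp4a10 at r = 0.58, and Cyp4a10 with Cyp4f13 at 0.50 and Cyp4f14 at 0.48, all with an adjusted p of 1.67e-05. Cyp4a12a was apart, at r = -0.24 with Cyp4f15 (adjusted p = 0.0235, rho = -0.31, adjusted p = 0.00342) and between -0.20 and 0.05 with the other members (adjusted p = 0.057 to 0.623). Spearman's rho passed for 2 of these, at -0.28 with Cyp4a10 (adjusted p = 0.00803) and -0.24 with Cyp4f14 (0.0203). Over the 87 strains with 2 or more mice, r passed for 4 pairs of Cyp4a12a, at -0.36 with Cyp4f15 (adjusted p = 0.00066), -0.25 with Cyp4a10 (0.0267), -0.23 with Cyp4f14 (0.0399) and -0.22 with Cyp4f13 (0.0421).

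**Figure D4:**
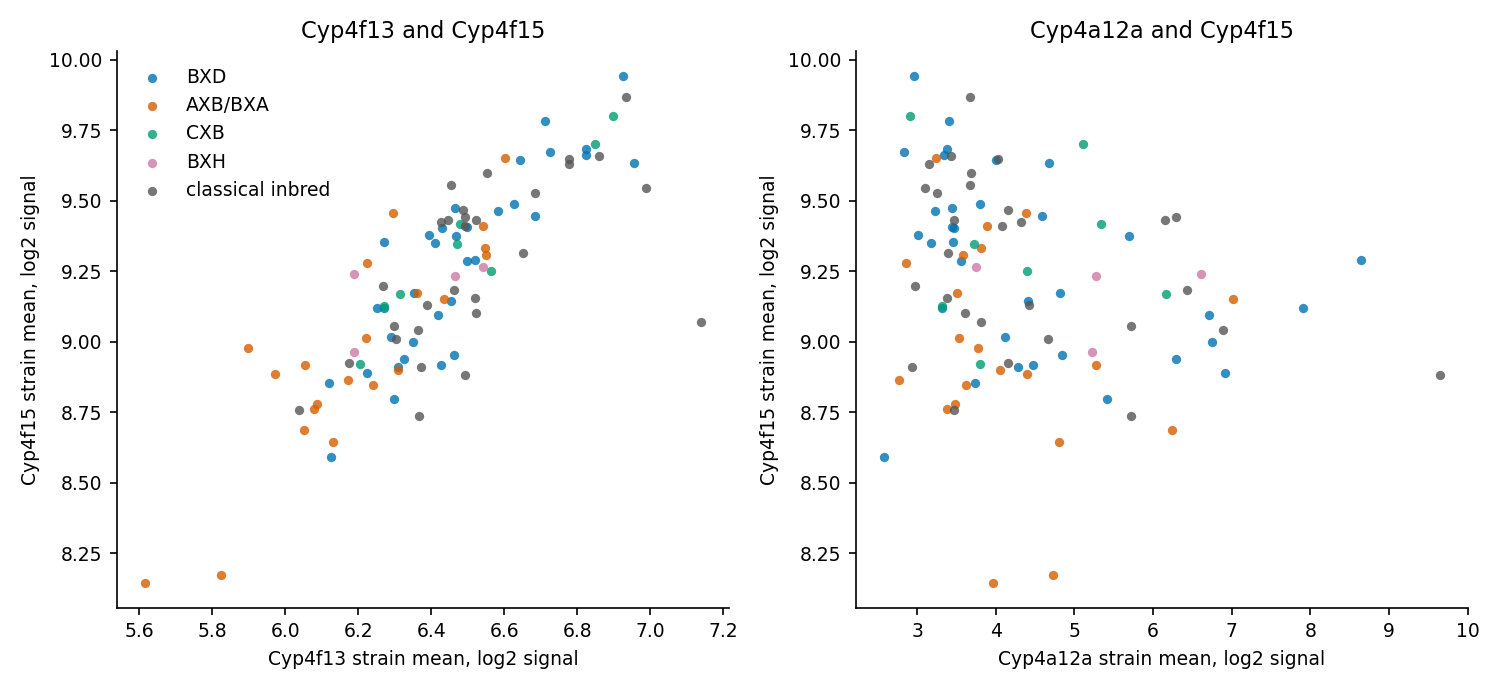
Strain means of Cyp4f13 against Cyp4f15 and of Cyp4a12a against Cyp4f15 (both axes log2 RMA signal), with 1 point per strain coloured by panel. Cyp4f13 and Cyp4f15 lie along a rising line (r = 0.82), and the strains with high Cyp4a12a show no such line (r = -0.24).

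Much of this shared variation followed the first principal component of all probe sets, which held 19.95% of the variance. Its r over mice was 0.81 with Cyp4f15, 0.70 with Cyp4f13, 0.69 with Cyp4a10, 0.65 with Cyp4f14, 0.60 and 0.47 with Cyp4v3 and -0.29 with Cyp4a12a. After the component was taken out, 2 of the 15 pairs passed, Cyp4f13 with Cyp4f15 (r = 0.54, adjusted p = 0.00015) and Cyp4f15 with Cyp4v3 (r = 0.40, adjusted p = 0.000675). The cholangiocyte score correlated with the component at -0.87, and over strain means with Cyp4f15 at -0.73, Cyp4a10 at -0.60, Cyp4f13 at -0.57, Cyp4v3 at -0.56, Cyp4f14 at -0.51 and Cyp4a12a at 0.19. The stellate cell score stood at -0.85 with the component, -0.62 with Cyp4f15, -0.61 with Cyp4f13, -0.58 with Cyp4f14, -0.56 with Cyp4a10, -0.45 with Cyp4v3 and 0.24 with Cyp4a12a. The hepatocyte score ran the other way, at 0.69 with Cyp4f15 and 0.47 with Cyp4a10. Their part in the shared variation was not tested.

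The members were next set beside lists of genes of the same pathways, as a description over 96 strain means from arrays normalised together. Over strain means, list averages also followed the first principal component, with r = 0.72 for PPARa targets and 0.84 for omega-oxidation partners. It was 0.77 for nuclear receptors and regulators, 0.85 for female-biased genes and 0.60 for male-biased genes. What in the relations below goes beyond that component was not tested. Cyp4a10 followed the PPARa targets. The median r with 31 of 38 listed targets was 0.58, against 0.04 with all 17091 other genes, and 20 of the 31 (64.5%) had r of at least 0.5, against 4.01% of all genes. The acyl-CoA thioesterases Acot1 (0.81), Acot3 (0.80) and Acot2 (0.77) and the peroxisomal and mitochondrial isomerase Ech1 (0.75) led the list. Among 15 of 20 partners of omega-oxidation the median was 0.52, led by Acot8 (0.76), Aldh3a2 (0.74), which oxidises fatty aldehydes to acids, and Ehhadh (0.73), the bifunctional enzyme of peroxisomal beta-oxidation. Acot3 and Abcd2 also stand in the female-biased list, and the lists of PPARa targets and of omega-oxidation partners share members, Aldh3a2 and Ehhadh among them. The same 31 PPARa targets gave a median r of 0.44 with Cyp4f15, 0.38 with Cyp4f13, 0.35 with Cyp4v3, 0.33 with Cyp4f14 and 0.07 with Cyp4a12a.

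All 31 PPARa targets and 14 of 15 omega-oxidation partners differed among strains in the F-test, where 10107 of 17091 other genes did. In AXB/BXA against classical inbred strains, 12 PPARa targets were lower and 0 higher, among them Acot1 (-0.70, adjusted p = 0.0163) and Creb3l3 (-0.28, adjusted p = 2.71e-06), a liver transcription factor of fasting, where 556 and 528 of 17091 genes were lower and higher. Cyp4a10 was lower in the same comparison. In A/J against C57BL/6J, 3 of the 31 were lower and 0 higher, namely Cyp8b1 (-1.53), Fads2 (-0.83) and Acaa2 (-0.32), where 785 and 1011 of all genes were lower and higher.

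Cyp4f13 and Cyp4f15 lay closer to nuclear receptors and their partners. Of 18 measured regulators, 9 had r of at least 0.5 with Cyp4f15 (7.42% of all genes did), and the median was 0.48 for Cyp4f15 and 0.47 for Cyp4f13. Ppara itself had r = 0.81 with Cyp4f15 and 0.75 with Cyp4f13, its partner Rxra 0.73 and 0.70, and the coactivator Ppargc1b 0.77 with Cyp4f15. Ghr, the growth hormone receptor, had 0.81 with Cyp4f15, 0.74 with Cyp4f13 and 0.65 with Cyp4f14, but the 11 measured genes of growth hormone and androgen signalling had a median of 0.09, 0.16 and 0.31 with these genes, and with Cyp4f15 5 of the 11 were at 0.5 or above and 2 at -0.5 or below. The clock repressor Cry2 had 0.78 with Cyp4f15 and 0.71 with Cyp4f13. Cyp4f14 ran with Igfals (0.61) and Igf1 (0.55), liver genes that growth hormone induces. Cyp4f18 was opposite to Cyp4f13 (-0.56) and Cyp4f16 to Cyp4f14 (-0.55). The promoter of Cyp4f18 also holds the letters printed above for its 3 relatives, and the part of these letters was not tested.

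**Figure D5:**
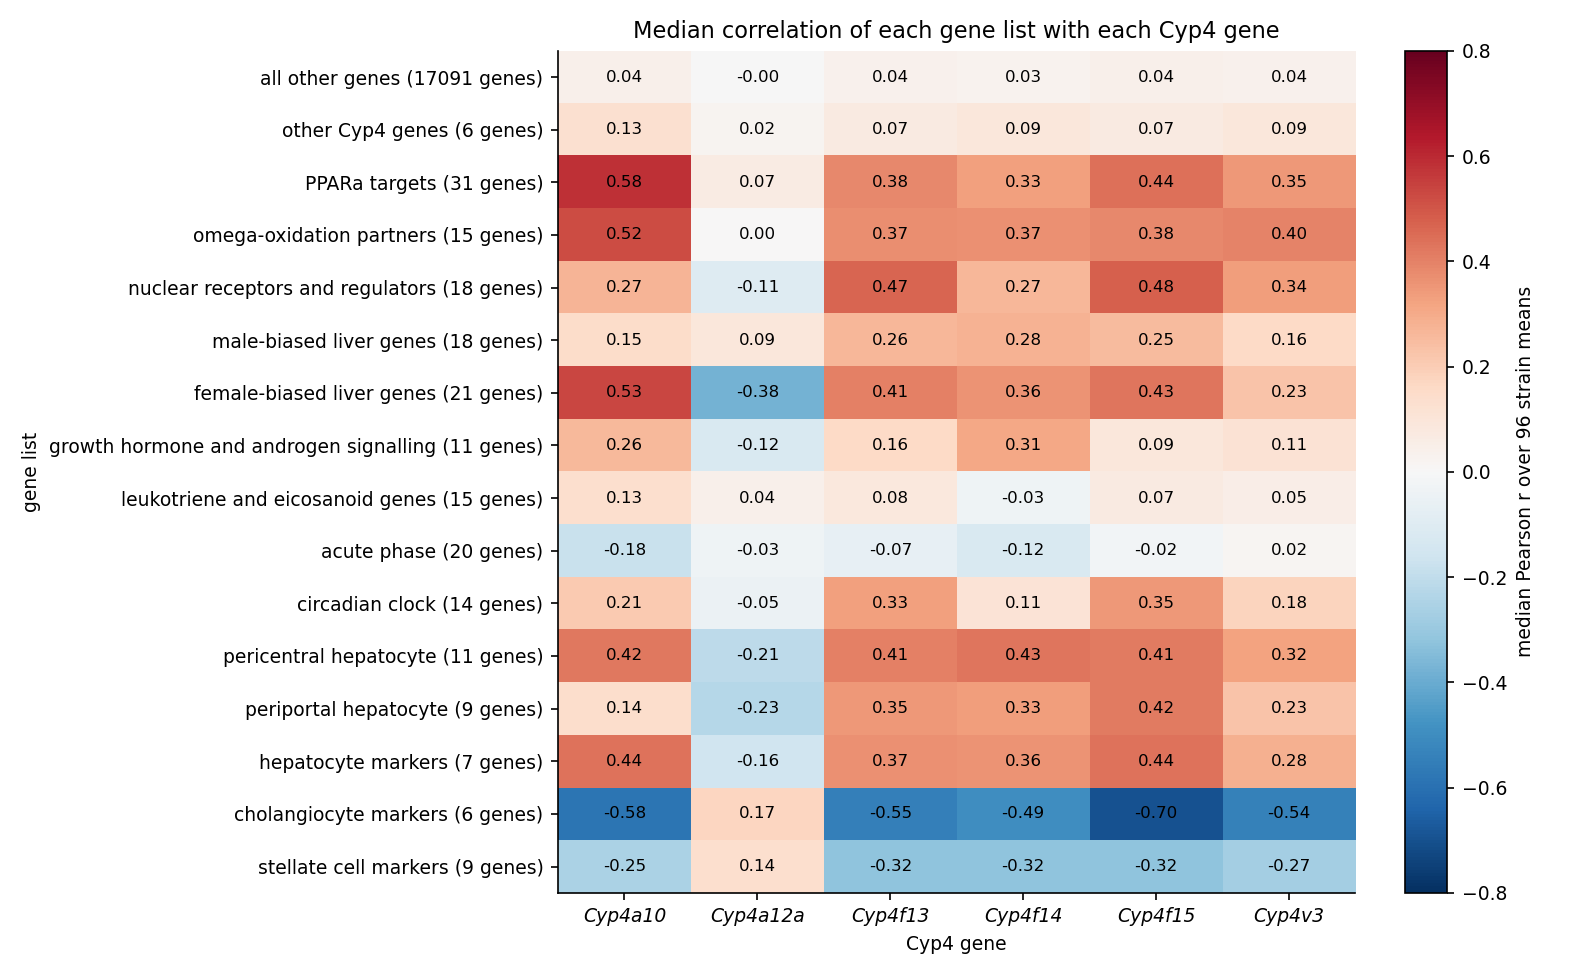
Median Pearson r over 96 strain means between each Cyp4 gene (columns) and the genes of each list (rows), as colour with the value printed. Cyp4a10 has its highest median with the PPARa targets (0.58), Cyp4f15 its lowest with the cholangiocyte markers (-0.70), and Cyp4a12a its lowest with the female-biased liver genes (-0.38).

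Cyp4a12a was set beside genes that are known to differ between the sexes in mouse liver. Its r was negative with 19 of 21 female-biased genes, with a median of -0.38 against -0.00 for all genes, and was lowest with Slc22a26 (-0.61), the sulfotransferase Sult2a2 (-0.59), Trim24 (-0.53) and Cux2 (-0.50), a transcription factor of female liver. Among 18 male-biased genes the median was 0.09, and Cyp2d9 (0.58) and the complement component C6 (0.57) were highest. Within strains, mice that deviated upward in Cyp4a12a also deviated in these genes, with r = -0.68 for Sult2a2, 0.54 for Cyp2d9 and 0.50 for C6. Cyp4a10 had a median of 0.53 over the female-biased genes, led by Cyp2b9 (0.79), and of 0.15 over the male-biased genes, where 13 of 18 were positive and Gstp1 was at -0.69.

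The 4 strains whose high Cyp4a12a held in every run without replicates were taken for that reason, and their sex-biased genes are described. In KK/HlJ 8 of 21 female-biased genes were lower and 0 higher, where 319 and 439 of 17091 genes were, with Cyp2b13 at -4.52 (adjusted p = 2.41e-15), Sult2a2 at -3.18 (0.00189), Slc22a26 at -2.64 (1.45e-04) and Cyp2b9 at -2.07 (5.36e-13), and the list's median was -0.66. Of 18 male-biased genes 5 were higher and 0 lower in KK/HlJ, among them Slco1a1 at 3.60 (adjusted p = 1.41e-07), Cyp2d9 at 1.92 (9.81e-05) and C6 at 1.59 (7.56e-05). BXD36/TyJ had 3 female-biased genes lower and 2 male-biased genes higher, where 297 of 17091 genes were lower and 308 higher. BXD18/TyJ had 5 lower and 2 higher, where 266 and 344 of all genes were, with Cyp2d9 among the higher ones in both strains. BXD32/TyJ had 3 female-biased genes lower, 1 higher (Sult1e1, 2.75) and 2 male-biased genes higher, where 222 of all genes were lower and 227 higher. Of the 6 cholangiocyte markers, 5 were higher in BXD18/TyJ and none was called in the other 3 strains. Of 8 endothelial markers, 4 were lower in BXD18/TyJ (median -0.42) and 1 each in BXD36/TyJ and BXD32/TyJ, and of 10 Kupffer cell and macrophage markers, 3 were lower in BXD36/TyJ (median -0.42) and 1 each in BXD18/TyJ and KK/HlJ. Of 2 erythroid markers measured, 1 was higher in each of KK/HlJ, BXD36/TyJ and BXD32/TyJ, and 0 in BXD18/TyJ. The part of these markers was not tested. All these libraries carried a female label, Y-linked probe sets were at the floor in each, and none was the mouse with low Xist.

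The 3 genes most like each member over the 96 strains were found among all 17091 other genes. For Cyp4a12a they were Alas2 (0.61), which is also in the list of erythroid markers, Abcg2 and Cox19 (0.58 each), so no gene followed it closely. For Cyp4a10 they were Acot1 (0.81), Acot3 (0.80) and Cyp2b9 (0.79). For Cyp4f15 they were Fah (0.87), the last enzyme of tyrosine breakdown, Apoa5 (0.86), an apolipoprotein that lowers plasma triglyceride, and Aspdh (0.86). For Cyp4f13 they were Nfix (0.79), Tmprss6 (0.79) and Car5a (0.78), for Cyp4f14 Slc22a30 (0.79), Rgn (0.78) and Nat8f1 (0.75), and for Cyp4v3 Hsd17b11 (0.70), Ephx2 (0.68), the soluble epoxide hydrolase, and Sfxn5 (0.66).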

How the data were processed

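The deposited log2 signal of each probe set was made by the authors with robust multi-array averaging (RMA). GCOS and RMA are the tools in the submitters' processing notes, with versions not given in the sources used here. RMA quantile-normalizes arrays, so values are relative levels. Of 45141 probe sets, 104 array controls were left out. The platform annotation named 28898 probe sets with 1 gene. Short probes can bind near-identical transcripts, so Cyp4a10, Cyp4a12a (with Cyp4a12b) and the brighter Cyp4v3 probe set may mix relatives, and a variant under a probe can lower a strain's signal.

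limma 3.58.1 in R 4.3.3 was used for F-tests over strains with 2 or more mice, for contrasts of single strains (124 residual degrees of freedom) and, on strain means, for panels, 2-sided with Benjamini-Hochberg adjustment over all probe sets (over all strains too for single strains), at 0.05. The code was tested on simulated data. Strain relations used permutation tests in Python 3.11.15 with scipy 1.17.1, over 15 pairs because Cyp4a14 had no probe set. The probe set with the highest mean stood for its gene. Mice of a strain are separate animals, so p-values of F-tests and of contrasts of single strains measure the spread between these mice. Those of panel contrasts and strain relations rest on strain means, and strains of a panel are related. Single arrays give no depth, and their number limits precision. Without a date or batch in the labels, no batch could be tested, and the number in the sample label was tried as a covariate. Alternatives left out replicates, dim probe sets or strains of 1 mouse, centred or renormalized the arrays, or added the first principal component. Members and lists were chosen with earlier results of these data known. Named genes were all members, the 3 most alike genes, up to 4 genes of a list by r or, in contrasts, by size of change, and the 3 highest and lowest strains with strains called.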

Additional observations from a re-analysis of the deposited data

Results flagged for a closer look

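Of 21 groups of 4 to 10 values examined for a value far from the others, 1 held such a value, and chance alone marks about 1 group in 20. Among the 4 BXH strains, the Cyp4f15 mean of BXH22/KccJ was 8.96, against a group median of 9.24, and its gap to the nearest strain took 0.902 of the group's whole range, above the limit of 0.829 for 4 values.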

How the results depend on the processing

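All 7 F-test calls were kept under every alternative tried for that test. The 94 single-strain calls became 33 to 66 when replicate 1, 2 or 3 of each strain was left out. Cyp4f15 in CXB3/ByJ turned to -0.064 (adjusted p = 0.971) without replicate 2 and was 1.02 without replicate 1, against 0.50 with both mice, which read 9.14 and 10.26. The 7 progenitor calls became 0 to 5 when a C57BL/6J mouse was left out. Leaving out a mouse of either strain gave 0 to 4 calls for A/J (4 with all mice), 0 to 1 for BALB/cJ (1) and 0 to 1 for C3H/HeJ (2). BALB/cJ had 3 calls when the 5 progenitors were fitted alone, and 2 with only probe sets above the median signal or with arrays centred on their median. The 19 calls within panels became 10 to 16 with replicates left out, with 2 to 5 in AXB/BXA, 3 to 6 among classical inbred strains and 0 to 1 in CXB. Panels against classical inbred strains gave 2 calls in place of 4, both in AXB/BXA, with strains of 2 or more mice. The median share of variance was 0.592 to 0.676 with replicates left out and 0.403 with the first principal component as a covariate. Of the 15 pairs, 11 were called over all strains, 14 over strains with 2 or more mice, 9 within BXD, 7 within AXB/BXA, 6 within classical inbred strains, 1 within CXB and 2 after the component was taken out, where Cyp4a10 with Cyp4f13 (-0.085), Cyp4a10 with Cyp4f15 (-0.0077) and Cyp4f14 with Cyp4v3 (-0.040) turned negative. Fewer strains or mice enter most of these alternatives, and the cause was otherwise not tested. Leaving out the BXD50/RwwJ mouse with low Xist was chosen after seeing the data, and gave 91 single-strain calls. No paired analysis was possible because replicate numbers follow accession order and pair nothing.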
